A study of Mus musculus with 6 samples.

Results

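The genes described here are 35 genes of the unfolded protein response and the amino acid response, measured by RNA sequencing in mouse embryonic stem (ES) cells with and without HP1 alpha and HP1 beta. They were chosen by name as ATF4 and its targets, enzymes of serine and other amino acid synthesis, and chaperones and sensors of the endoplasmic reticulum (ER), and were matched by Entrez gene ID to the count table. All 35 were found among its 24467 gene IDs, and all 35 were among the 14771 genes that passed the filter on low counts. The control libraries came from 1 clone labelled Hp1α/β F/F, whose genotype is given as WT. The double knockout (DKO) libraries came from clone 1 and clone 2, both labelled as deleted for Hp1alpha (gene Cbx5) and Hp1beta (gene Cbx1). Each of these 3 groups has 2 libraries, and all cells were untreated and grown in DMEM with knockout serum replacement, LIF, non-essential amino acids, glutamine, beta-mercaptoethanol and the inhibitors CHIR99021 (GSK3) and PD184352 (MEK). With 1 control clone, an effect of genotype and a difference between clones cannot be told apart. Nothing in the labels tells if the pair of libraries of a clone stems from separate cultures, so p-values measure only the spread between these libraries, which may be technical.

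When unfolded proteins build up in the ER, the sensors PERK (gene Eif2ak3), IRE1 (Ern1) and ATF6 are activated. IRE1 splices the messenger of XBP1, and XBP1 and ATF6 switch on ER chaperones such as BiP (Hspa5). PERK, like the amino acid sensor GCN2 (Eif2ak4), phosphorylates eIF2 alpha, which lowers general protein synthesis and raises translation of ATF4, the activator of genes for amino acid synthesis and uptake. Total messenger levels, measured here, do not report XBP1 splicing, ATF6 cleavage or ATF4 protein.

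The promoter elements that tie these genes to the pathway are short, and they show which of the 35 genes carry the classic sites. The 250 bases before the transcript start that the RefSeq promoter table of GRCm38.p6 uses were searched on both strands, for the 31 of the 35 genes it held. This start was the first base of the listed gene span for 26 of the 31, and lay 8407 to 55474 bases inside it for Mthfd2, Slc3a2 and Slc7a11. The ER stress response element ERSE (CCAAT, any 9 bases, then CCACG) was found in 6 of these 31 genes, against 0.1295% of all 27025 genes with a promoter entry. The related ERSE-II (ATTGG, any 1 base, then CCACG) was found in Herpud1 alone among the 31, against 0.037% of all genes with a promoter entry. The windows below are read along the gene, with the element in capitals and 10 bases on each side, and an element on the other strand therefore reads as its reverse complement.
Hspa5, chr2:34772015-34772053, plus strand: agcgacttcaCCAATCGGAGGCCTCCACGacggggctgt
Hsp90b1, chr10:86705523-86705561, minus strand: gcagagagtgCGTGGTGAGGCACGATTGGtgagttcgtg
Pdia6, chr12:17266481-17266519, plus strand: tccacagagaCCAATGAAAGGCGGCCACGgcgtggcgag
Calr, chr8:84847065-84847103, minus strand: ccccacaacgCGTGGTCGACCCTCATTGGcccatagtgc
Creld2, chr15:88819510-88819548, plus strand: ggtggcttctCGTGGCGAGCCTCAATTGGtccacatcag
Dnajc3, chr14:118937817-118937855, plus strand: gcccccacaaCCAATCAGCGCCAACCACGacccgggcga
Herpud1 (ERSE-II), chr8:94386367-94386397, plus strand: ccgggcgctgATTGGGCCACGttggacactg

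The element read by ATF4 with C/EBP partners is the C/EBP-ATF response element (searched as TGATGNAA). It was found in 6 of the 31 genes, against 3.91% of all genes with a promoter entry. The 6 were Asns, Chac1, Herpud1, Nupr1, Pycr1 and Slc7a11. In Asns it lay 23 to 16 bases before the start. The window of Asns is shown because its change was the largest of the 35 genes, and the 3 others because they are ATF4 targets whose values are set beside it.
Asns, chr6:7693215-7693242, minus strand: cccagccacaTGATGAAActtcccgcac
Pycr1, chr11:120643834-120643861, minus strand: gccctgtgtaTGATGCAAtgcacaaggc
Chac1, chr2:119351039-119351066, plus strand: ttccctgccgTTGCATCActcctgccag
Nupr1, chr7:126625563-126625590, minus strand: aagggccagaTTGCATCAgacagggctt
The core of the XBP1 element UPRE (TGACGTGG) was in none of the 31 genes and in 0.603% of all genes with a promoter entry. These matches describe letters in a window, and say nothing of binding in these cells.

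The libraries held 24628872 to 34641560 counted reads, and the 35 genes together took 0.660 to 0.731% of them. Cbx5 and Cbx1 fell to 24.4 and 20.3% of the control level in the DKO libraries, the direction their labels give. The summed level of 8 ES cell markers was 3835 to 4034 CPM (counts scaled to a common library size) in the control and 3887 to 4142 CPM in the DKO libraries, with none of the 8 at 0. The summed level of 12 fibroblast and feeder markers was 16.5 to 18.8 CPM in the control and 8.10 to 10.1 CPM in the DKO libraries, with Twist2 at 0 in all 6. That of 12 primitive endoderm markers was 441 to 488 and 406 to 431 CPM. Both sums were thus lower in every DKO library, but not every marker was. Of 6 tested fibroblast and feeder markers, 4 had negative and 2 positive log2 changes, and of 11 tested primitive endoderm markers, 9 and 2. Sparc, at 332 and 381 CPM in the control, made up most of the primitive endoderm sum, and it overlapped between the groups. The part of both sets in the results below was not tested. In bulk RNA, fewer cells of a type and less RNA per cell cannot be told apart.

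Of the 35 genes, 5 rose in DKO against control, none fell and 30 did not pass the threshold (edgeR quasi-likelihood F test, Benjamini-Hochberg adjusted p under 0.05 over all 14771 genes). The 5 that rose were Asns, Mthfd2, Pdia4, Eif2ak3 and Aldh18a1. Across all tested genes 5.06% were called higher, 3.62% lower and 8.69% in either direction. At an unadjusted p under 0.05, 7 of the 35 were higher and 6 lower, where 11.9% of all tested genes were higher and 11.3% lower. The median log2 change of the 35 genes was -0.03, beside 0.0004 for all tested genes. All 4 DKO libraries lay above both control libraries for 10 genes (28.6%) and below both for 10 genes, where 16.9% of all tested genes did each, and the ranges overlapped for 15 genes. DESeq2 and limma-voom called the same 5 higher, and DESeq2 also called Psat1 lower.

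Of the 5 genes that rose, 4 lie on chromosome 6, and they are the only ones of the 35 on that chromosome. Chromosome 6 as a whole was higher in the DKO clones: its 709 tested genes had a median log2 change of 0.48, and 348 of them (49.1%) were called higher. Outside chromosomes 3 and 6, 2.32% of genes were called higher, and 1 of the 29 genes of the set there, Aldh18a1, was. Asns stood above 72.4% of chromosome 6 genes in its log2 change, Pdia4 above 38.5%, Mthfd2 above 35.5% and Eif2ak3 above 27.9%. When each chromosome was centred on its own median, Asns kept a log2 change of 0.13 (edgeR adjusted p = 0.260). Those of Mthfd2, Pdia4 and Eif2ak3 became -0.10, -0.077 and -0.16, and none of these 3 passed the threshold.

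**Figure D1:**
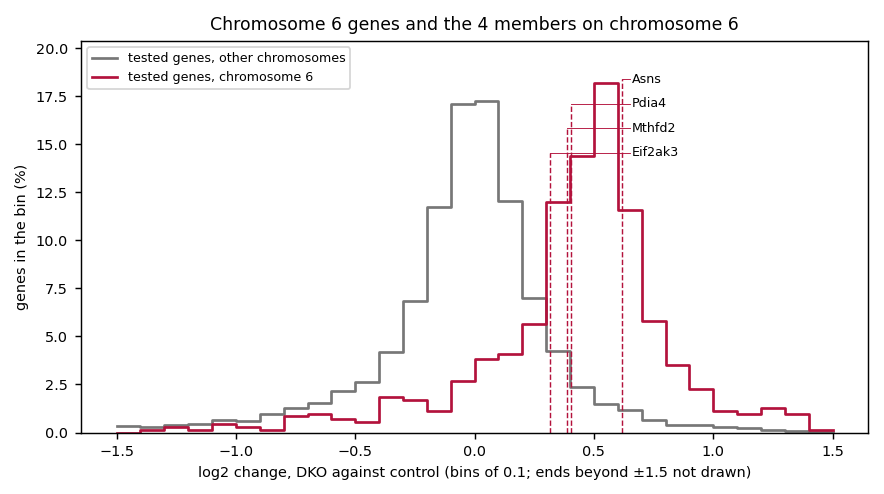
Share of genes (%) per bin of log2 change (DKO against control) for the 709 tested genes of chromosome 6 and for genes on the other chromosomes, with the 4 genes of the set on chromosome 6 marked. The marks for Mthfd2, Pdia4 and Eif2ak3 lie below the chromosome 6 median of 0.48 and that for Asns lies above it.

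Asns, the enzyme that makes asparagine from aspartate and glutamine, had the largest change of the 35 genes (Entrez 27053, chromosome 6). Its level was 541 and 546 CPM in the control, 809 and 828 in clone 1, and 873 and 825 in clone 2. All DKO libraries were far above both control libraries, and the clones did not separate. The mean rose from 544 ± 3.53 CPM (SD, n = 2) to 834 ± 27.5 CPM (SD, n = 4), a log2 change of 0.62 (SE 0.0637, edgeR adjusted p = 8.4e-04). It passed the threshold with each library left out in turn, with edgeR adjusted p between 0.00104 and 0.0303.

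Proline is made from glutamate by the synthase encoded by Aldh18a1 and then by the reductase encoded by Pycr1. Aldh18a1, on chromosome 19, was at 45.4 and 51.9 CPM in the control, 59.4 and 62.2 in clone 1, and 62.0 and 59.3 in clone 2. It rose by a log2 change of 0.32 (SE 0.0815, edgeR adjusted p = 0.0355), and it is the only one of the 5 that lies off chromosome 6. After centring, its log2 change was 0.33 (edgeR adjusted p = 0.0473). This call rests on single libraries. Leaving out control replicate 1 or 2 gave edgeR adjusted p = 0.298 or 0.0738, leaving out clone 1 replicate 1 or 2 gave 0.0506 or 0.0754, and leaving out clone 2 replicate 1 gave 0.0797. Pycr1 was at 10.1 and 9.11 CPM in the control and between 10.5 and 12.7 in the DKO libraries, which did not overlap, with a log2 change of 0.21 (edgeR adjusted p = 0.392).

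Of 5 genes of the serine and glycine pathway, Mthfd2 rose and 4 did not pass the threshold, beside 5.06% of all tested genes called higher and 3.62% lower. In this pathway, 3 of the 5 genes had positive and 2 negative log2 changes. The first step is catalysed by the dehydrogenase Phgdh, followed by the aminotransferase Psat1 and the phosphatase Psph, while Shmt2 and Mthfd2 carry the one-carbon unit of serine into the mitochondrial folate cycle. Mthfd2 lies on chromosome 6, where 49.1% of tested genes were called higher. It was at 99.5 and 112 CPM in the control, 143 and 144 in clone 1, and 132 and 135 in clone 2. Every DKO library was above both control libraries, and the log2 change was 0.39 (SE 0.0744, edgeR adjusted p = 0.00987, and 0.151 without control replicate 1).

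Psat1, on chromosome 19, went the other way in all 4 DKO libraries. It was at 147 and 150 CPM in the control, 115 and 118 in clone 1, and 130 and 132 in clone 2. Its log2 change in DKO against control was -0.26 (SE 0.0746, edgeR adjusted p = 0.0561), just outside the threshold. It passed under DESeq2 (adjusted p = 0.0345), with either other filter (0.0413 with none and 0.0467 with at least 2 CPM in at least 2 libraries) and without clone 2 replicate 2 (0.0458). Phgdh was at 60.5 and 59.6 CPM in the control and between 41.4 and 56.7 CPM in the DKO libraries, with a log2 change of -0.23 (edgeR adjusted p = 0.277). Its low end is clone 2 replicate 1 at 41.4 CPM, where replicate 2 of that clone held 56.3 CPM. Phgdh lies on chromosome 3, whose genes had a median log2 change of 0.18, and after centring its change was -0.41 (edgeR adjusted p = 0.0783). In clone 1 against control, Phgdh passed the threshold after centring (-0.44, edgeR adjusted p = 0.0296) but not before it (-0.16, adjusted p = 0.395). Psph was at 35.7 and 34.6 CPM in the control and 38.9 to 43.4 in the DKO libraries (log2 change 0.20, adjusted p = 0.187). Shmt2 was at 164 and 177 CPM in the control and 178 to 187 in the DKO libraries (log2 change 0.08, adjusted p = 0.474).

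**Figure D2:**
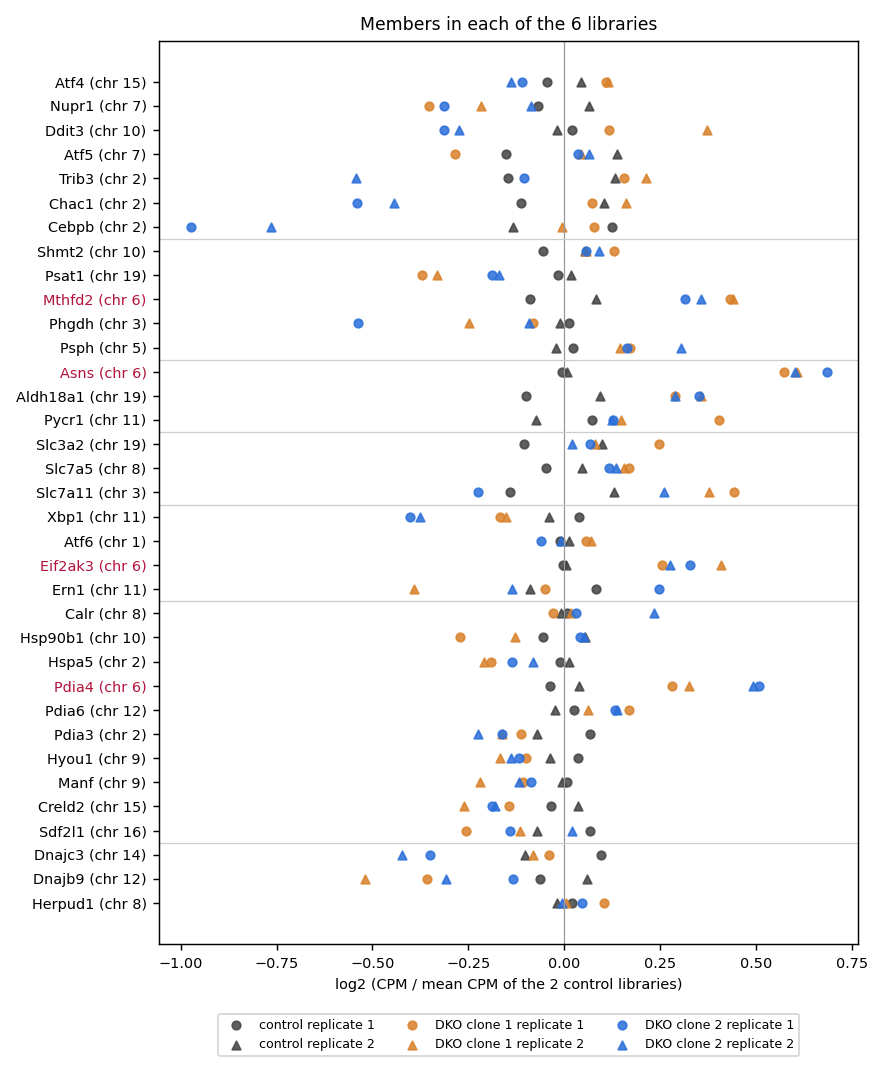
Level of each of the 35 genes in each of the 6 libraries, as the log2 ratio of its CPM to the control mean, with genes grouped by role and those on chromosome 6 named in red. Asns, Mthfd2, Pdia4, Eif2ak3 and Aldh18a1 lie above the control libraries in all 4 DKO libraries.

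None of the 3 genes of amino acid transport passed the threshold, where 8.69% of all tested genes did in either direction. All 3 had positive log2 changes. Slc7a5 and Slc3a2 form the exchanger of large neutral amino acids, and Slc3a2 pairs with Slc7a11 in the cystine importer. Slc7a5 was at 158 and 168 CPM in the control and 177 to 183 CPM in the DKO libraries, a log2 change of 0.14 (SE 0.0612, edgeR adjusted p = 0.189). Its groups did not overlap, but the gap between the nearest libraries was smaller than the gap between the control libraries. Slc3a2 (log2 change 0.11, adjusted p = 0.492) overlapped between the groups. Slc7a11 was low, at 3.23 and 3.90 CPM in the control and 3.05 to 4.85 in the DKO libraries (log2 change 0.24, adjusted p = 0.555).

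Atf4 and the regulators it controls were not called in DKO against control. Atf4 was abundant and nearly level, at 481 and 512 CPM in the control, 536 and 538 in clone 1, and 460 and 451 in clone 2. The clones thus fell on either side of the control, and the pooled log2 change was -0.0014 (SE 0.0868, edgeR adjusted p = 0.994). Ddit3 (CHOP, a factor induced in prolonged stress) also had a pooled log2 change of 0.00 (SE 0.184). Trib3, a pseudokinase that restrains ATF4, was at -0.04, Chac1, which degrades glutathione, at -0.15, and Nupr1, a small stress-induced nuclear protein, at -0.24. The bZIP factors Atf5 and Cebpb were at -0.03 and -0.34. None of these 7 genes was below an adjusted p of 0.05 or an unadjusted p of 0.05, and for 6 of the 7 the groups overlapped. Nupr1 was the exception, at 19.3 and 21.1 CPM in the control and 15.8 to 19.01 in the DKO libraries (edgeR adjusted p = 0.221). Of all tested genes, 8.69% were called in either direction, and 16.9% had all 4 DKO libraries below both control libraries.

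Of the 4 genes for ER stress sensors and XBP1, only Eif2ak3 rose and none fell, beside 5.06% and 3.62% of all tested genes. Eif2ak3, the PERK kinase gene, lies on chromosome 6, where 49.1% of tested genes were called higher. It was at 38.5 and 38.7 CPM in the control, 46.1 and 51.3 in clone 1, and 48.5 and 46.7 in clone 2. Its log2 change was 0.32 (SE 0.0808, edgeR adjusted p = 0.0355). Leaving out control replicate 1 or 2 gave edgeR adjusted p = 0.208 or 0.196, leaving out clone 1 replicate 2 gave 0.0779 and leaving out clone 2 replicate 1 gave 0.0764. Atf6 stayed within 55.1 to 60.3 CPM in all 6 libraries (log2 change 0.02, adjusted p = 0.930). Ern1, the IRE1 gene, spanned 9.48 to 14.8 CPM (log2 change -0.07, adjusted p = 0.857). Xbp1 was at 64.5 and 61.1 CPM in the control, 55.9 and 56.5 in clone 1, and 47.5 and 48.4 in clone 2. All its DKO libraries were lower, with a pooled log2 change of -0.27 (SE 0.0929, edgeR adjusted p = 0.107).

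Among 10 ER chaperones and oxidoreductases, Pdia4 rose and the other 9 did not pass the threshold, beside 5.06% of all tested genes called higher and 3.62% lower. The median log2 change of the 10 was -0.13. Pdia4, a protein disulfide isomerase, lies on chromosome 6, where 49.1% of tested genes were called higher. It was at 366 and 386 CPM in the control, 456 and 471 in clone 1, and 534 and 529 in clone 2. It rose by a log2 change of 0.40 (SE 0.0803, edgeR adjusted p = 0.0115). Leaving out control replicate 1 gave edgeR adjusted p = 0.151, and leaving out control replicate 2 gave 0.0824.

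Hspa5, which encodes BiP, the main ER Hsp70 and the most used readout of the response, was slightly lower in every DKO library. It was at 810 and 823 CPM in the control, 716 and 707 in clone 1, and 743 and 772 in clone 2, a log2 change of -0.15 (SE 0.0637, edgeR adjusted p = 0.179). The groups did not overlap for 4 further genes of this group with negative changes: the oxidoreductase Pdia3 (-0.17), the Hsp70-like nucleotide exchange factor Hyou1 (-0.13), Creld2 (-0.19) and the secreted ER protein Manf (-0.13). Their edgeR adjusted p-values were 0.159, 0.222, 0.130 and 0.271. Of all tested genes, 16.9% had all 4 DKO libraries below both control libraries. Pdia6 went the other way, at 279 and 269 CPM in the control and 286 to 308 in the DKO libraries (log2 change 0.13, adjusted p = 0.243). Hsp90b1, Calr and Sdf2l1 overlapped between the groups, with log2 changes of -0.07, 0.07 and -0.12.

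The ER J proteins Dnajb9 and Dnajc3, cochaperones of BiP, and Herpud1, a part of ER-associated degradation, were not called in DKO against control. Dnajb9 averaged 20.9 ± 1.26 CPM in the control (SD, n = 2) and spanned 14.6 to 19.03 in the DKO libraries, which did not overlap with it (log2 change -0.32, SE 0.118, adjusted p = 0.128). Dnajc3 overlapped (-0.21, adjusted p = 0.308), and Herpud1 was within 19.8 to 21.6 CPM in all 6 libraries (0.04, adjusted p = 0.854).

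Set beside the promoter windows above, the 6 genes with an ERSE had log2 changes from -0.21 to 0.13 with a median of -0.11, and none passed the threshold. The 6 genes with a C/EBP-ATF element had log2 changes from -0.24 to 0.62 with a median of 0.12, and Asns alone passed. Asns is also the only one of these 12 genes on chromosome 6, where 49.1% of tested genes were called higher. Over all tested genes, 8.69% passed in either direction. A link between the elements and the changes was not tested.

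**Figure D3:**
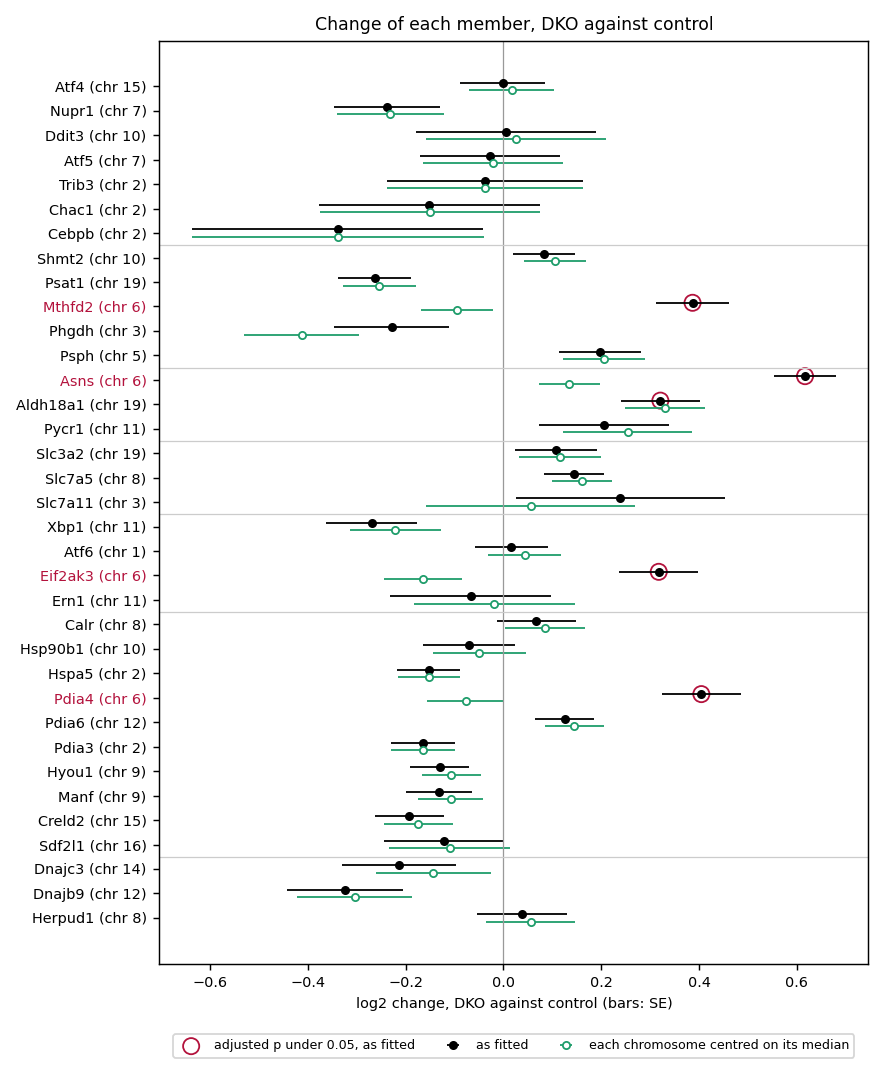
Log2 change of each of the 35 genes in DKO against control with bars of 1 SE, as measured (filled points, circled where called) and after centring of each chromosome on its median (open points). Of the 5 genes called as measured, Aldh18a1 alone is called after centring, at 0.33.

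The clones were then set against the control separately, with both sharing the same control libraries. In clone 1, 5 of the 35 genes rose and 2 fell, where 8.79% of all tested genes were called higher, 6.47% lower and 15.3% in either direction. In clone 2, 5 rose and 3 fell, where 7.89% were called higher, 7.08% lower and 15% in either direction. The 5 that rose were Asns, Mthfd2, Pdia4, Eif2ak3 and Aldh18a1 in each clone. Of these, only Asns passed in both clones with any of the 6 libraries left out, and Aldh18a1 only was called in both clones after centring.

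In clone 1, Psat1 and Dnajb9 fell. Psat1 had a log2 change of -0.35 (SE 0.0649, edgeR adjusted p = 0.00244) and passed with every library left out, with adjusted p at most 0.0222. Dnajb9 had -0.44 (SE 0.115, edgeR adjusted p = 0.0207), and leaving out control replicate 1, control replicate 2 or clone 1 replicate 2 gave 0.0519, 0.122 or 0.111. In clone 2 the corresponding values were -0.18 (adjusted p = 0.0829) and -0.22 (adjusted p = 0.228), and neither gene differed between the clones past the threshold (adjusted p = 0.149 and 0.323).

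In clone 2, Xbp1, Dnajc3 and Cebpb fell. Xbp1 had a log2 change of -0.39 (SE 0.0768, edgeR adjusted p = 0.00381) and passed with every library left out, with adjusted p at most 0.0429. Dnajc3 was at 69.8 and 60.9 CPM in the control, 63.6 and 61.7 in clone 1, and 51.3 and 48.7 in clone 2. Its log2 change in clone 2 was -0.39 (SE 0.0853, edgeR adjusted p = 0.00788, with 0.0722 without control replicate 1 and 0.0822 without clone 2 replicate 2). Dnajc3 lies on chromosome 14, whose tested genes had a median log2 change of -0.14 in clone 2. With each chromosome centred, the change of Dnajc3 in clone 2 was -0.25 (edgeR adjusted p = 0.0815). What lies behind the shift of chromosome 14 was not tested. Cebpb was at 3.26 and 2.73 CPM in the control, 3.16 and 2.98 in clone 1, and 1.53 and 1.76 in clone 2, counts of 38 to 112 reads. Its log2 change in clone 2 was -0.86 (SE 0.237, edgeR adjusted p = 0.0267), with 0.143 without control replicate 1, 0.151 without clone 2 replicate 1, 0.0804 without clone 2 replicate 2 and 0.0634 under DESeq2.

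The direct comparison of the clones, which tests whether they differ, called 3 of the 35 genes lower in clone 2 and none higher. Across all tested genes 3.77% were called lower, 2.53% higher and 6.3% in either direction. The 3 genes were Ddit3, Cebpb and Dnajc3. Ddit3 was at 14.5 and 17.3 CPM in clone 1 and 10.8 and 11.1 in clone 2, with the control between them at 13.6 and 13.2, and the log2 difference was -0.54 (SE 0.128, edgeR adjusted p = 0.0242). Cebpb differed by -0.90 (SE 0.240, edgeR adjusted p = 0.0430) and Dnajc3 by -0.33 (SE 0.0857, edgeR adjusted p = 0.0397). All 3 calls ended without clone 1 replicate 2, clone 2 replicate 1 or clone 2 replicate 2, with adjusted p between 0.0995 and 0.253. Without clone 1 replicate 1, Cebpb and Dnajc3 ended (0.182 and 0.181), and Cebpb also ended without control replicate 1 (0.0501) or control replicate 2 (0.0515). The Cebpb difference also ended under DESeq2 (adjusted p = 0.0807), limma-voom (0.0738) and a replicate block (0.0564), and that of Dnajc3 was -0.23 with each chromosome centred (edgeR adjusted p = 0.157).

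The 7 ATF4 regulators had a median log2 difference of -0.49 between clone 2 and clone 1, beside 0.0026 for all tested genes. At an unadjusted p under 0.05, 5 of the 7 were lower in clone 2 and none was higher, where 11.0% of all tested genes were lower and 9.6% higher. Past the threshold were Ddit3 and Cebpb, and the 3 others were Atf4 (-0.24, edgeR adjusted p = 0.0545), Chac1 (-0.61, adjusted p = 0.0784) and Trib3 (-0.49, adjusted p = 0.109). Chac1 was at 4.67 and 4.96 CPM in clone 1 and 3.05 and 3.26 in clone 2, and Trib3 at 10.1 and 10.5 CPM in clone 1 and 8.39 and 6.19 in clone 2. In both genes, every clone 2 library was below every clone 1 library. This order was not counted over all tested genes, and genes of the set with smaller differences, such as Slc7a5 and Atf6, also showed it. Against the control, the 7 ATF4 regulators had a median of 0.11 in clone 1 with none called, and -0.29 in clone 2 with Cebpb called. The 10 ER chaperones had a median of 0.08 between the clones, with none called.

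**Figure D4:**
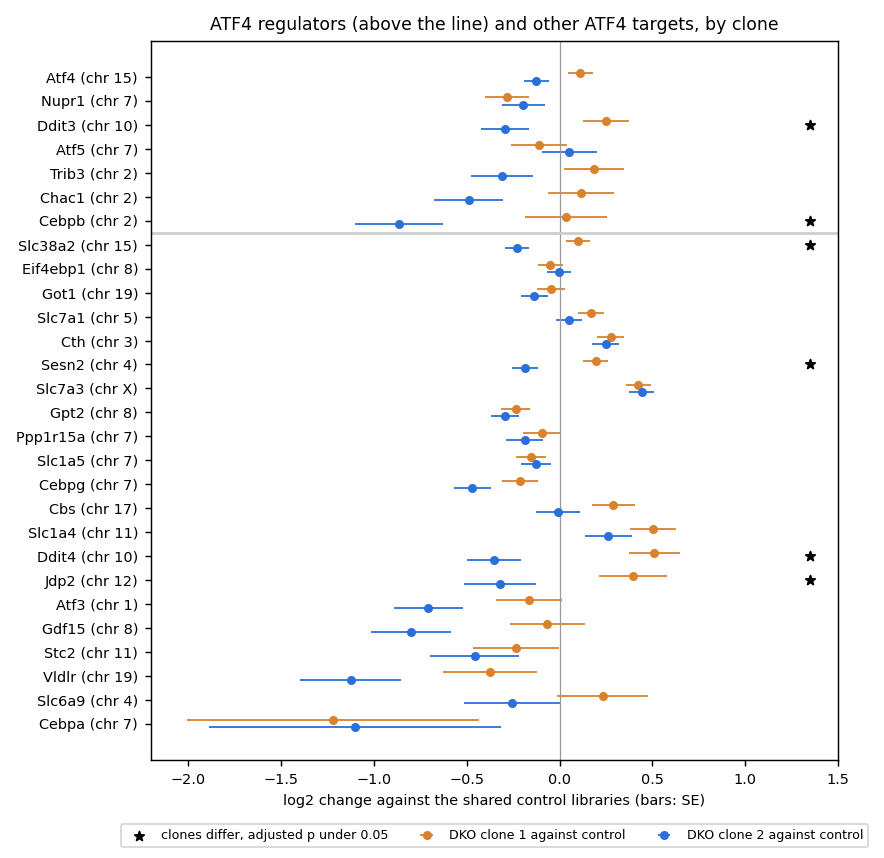
Log2 change of clone 1 and of clone 2 against the shared control libraries, with bars of 1 SE, for the 7 ATF4 regulators and, under the line, 21 other ATF4 targets, with a star where the clones differed at adjusted p under 0.05. For Ddit3 the clone 2 point lies 0.54 below that of clone 1, and stars mark Ddit3 and Cebpb among the 7.

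A list of 22 other ATF4 targets and amino acid transporters, which holds none of the 35 genes, was counted in the same contrasts. Of its 21 tested genes, 4 were lower in clone 2 than in clone 1 and none higher (median -0.24), where 3.77% of all tested genes were called lower and 2.53% higher. These were the glutamine transporter Slc38a2 (-0.33, edgeR adjusted p = 0.0103), Sesn2 (-0.38, adjusted p = 0.00649) and Ddit4 (-0.86, adjusted p = 0.00381), both restraints on mTORC1, and the bZIP repressor Jdp2 (-0.72, adjusted p = 0.0427). Against the control, 4 of the 21 rose in clone 1 and none fell, where 8.79% of all tested genes were called higher and 6.47% lower. In clone 2, 2 rose and 6 fell, where 7.89% were called higher and 7.08% lower. Between the clones, the count fell to 1 without clone 2 replicate 1 or without clone 2 replicate 2. In clone 1 it was 1 when control replicate 1 was left out and 2 when clone 1 replicate 1 was. In clone 2 it was 2 without control replicate 1, clone 2 replicate 1 or clone 2 replicate 2, and 4 without control replicate 2. Counting this list by clone was added after the data were seen.

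Over 7 lists of other genes of the same pathways, 129 of 132 were tested, and 11 rose and 6 fell in DKO against control, where 5.06% of all tested genes were called higher and 3.62% lower. Their median log2 change was -0.02. Of the 11 that rose, 4 were on chromosome 6 and 2 on chromosome 3. After centring 5 of the 129 genes were called higher and 4 lower, where 294 and 426 of all 14771 tested genes were. Of the 17 calls, 11 held when clone 2 replicate 1 was left out, where calls over all tested genes went from 1283 to 1039. Leaving out either control library leaves 1 control library, and most of the 17 calls then ended. Calls over all tested genes then also became far fewer. The 3 genes that passed without any 1 of the 6 libraries were Slc7a3, Aldh1l1 and Sec61a1.

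In the list of other ATF4 targets, 2 of 21 rose and none fell, where 5.06% of all tested genes were called higher and 3.62% lower. The cationic amino acid transporter Slc7a3, on the X chromosome, averaged 96.0 ± 1.18 CPM in the control (SD, n = 2) and 129.6 ± 2.14 CPM in the DKO libraries (SD, n = 4), and rose by a log2 change of 0.43 (SE 0.0621, edgeR adjusted p = 0.00239). Cth, which makes cysteine from cystathionine and lies on chromosome 3, had 0.26 (adjusted p = 0.0427), and its call ended with any 1 library left out, with adjusted p from 0.0521 to 0.337. Of 20 cytosolic aminoacyl-tRNA synthetases, which charge tRNAs and include many ATF4 targets, 2 rose: Gars on chromosome 6 (0.40, edgeR adjusted p = 0.00314, and 0.0579 without control replicate 2) and Sars on chromosome 3 (0.41, adjusted p = 0.0455, with 0.278, 0.233 and 0.0813 without control replicate 1, control replicate 2 and clone 1 replicate 2). After centring, neither passed the threshold.

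The folate cycle list had 3 of 14 genes that rose and none that fell, beside 5.06% and 3.62% of all tested genes. Aldh1l1, a dehydrogenase of formyl tetrahydrofolate on chromosome 6, averaged 10.6 ± 1.17 CPM in the control and 20.1 ± 1.85 CPM in the DKO libraries (SD, n = 2 and 4), a log2 change of 0.91 (SE 0.126, edgeR adjusted p = 0.00200), and was at 0.43 after centring (adjusted p = 0.0814). Mtr, methionine synthase, rose by a log2 change of 0.34 (edgeR adjusted p = 0.0246). Leaving out control replicate 1 or 2 gave edgeR adjusted p = 0.192 or 0.173.

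Among 14 genes for eIF2, its kinases and eIF2B, 2 rose and 1 fell, beside 5.06% and 3.62% of all tested genes. Eif2ak4, the GCN2 kinase that senses uncharged tRNA, rose by a log2 change of 0.38 (edgeR adjusted p = 0.0177), and Impact, an inhibitor of GCN2 activation, by 0.38 (adjusted p = 0.00509). Eif2s2, the beta subunit of eIF2, fell by 0.27 (edgeR adjusted p = 0.0378). All 3 calls ended when control replicate 1 or control replicate 2 was left out, with adjusted p from 0.0766 to 0.217. That of Eif2s2 also ended without clone 1 replicate 1 (0.0537) and clone 2 replicate 1 (0.0816).

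The other ER lists moved little. Of 22 further chaperone and folding genes, Creld1 on chromosome 6 rose by a log2 change of 0.49 (edgeR adjusted p = 0.0223), which was 0.0035 after centring. The oxidase Ero1b averaged 4.09 ± 1.01 CPM in the control and 2.34 ± 0.105 CPM in the DKO libraries (SD, n = 2 and 4), and fell by 0.81 on the log2 scale (edgeR adjusted p = 0.0327). The call of Ero1b held only without clone 2 replicate 2 and ended without each of the 5 other libraries, with adjusted p up to 0.360, and that of Creld1 ended when control replicate 1, control replicate 2 or clone 2 replicate 1 was left out (0.0516 to 0.184). Of 24 genes of ER-associated degradation and sensing, the translocon subunit Sec61a1 on chromosome 6 rose by 0.46 (edgeR adjusted p = 0.00181) and was at -0.023 after centring.

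In a list of 14 cytosolic heat shock genes, fixed as a neighbour pathway, 3 fell and none rose, with a median log2 change of -0.14. Of all tested genes, 3.62% were called lower and 5.06% higher. These were the cochaperone Bag3 (-0.61, edgeR adjusted p = 0.0167), Hsph1, an Hsp110 protein (-0.33, adjusted p = 0.0166), and the cytosolic Hsp90 gene Hsp90aa1 (-0.32, adjusted p = 0.0414). Each call ended when control replicate 1 or control replicate 2 was left out, with edgeR adjusted p from 0.0698 to 0.244. That of Hsp90aa1 also ended without clone 1 replicate 1 (0.0556) and clone 2 replicate 1 (0.0869).

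Levels of the 35 genes were compared per length, as RPKM (CPM per kilobase of the deposited gene width). Calr, a calcium-binding ER chaperone, was highest in the control at 430 RPKM, followed by Atf4 at 288, Hsp90b1 at 287, Asns at 199 and Hspa5 at 193. The lowest were Cebpb at 1.99, Ern1 at 1.52 and Slc7a11 at 0.301 RPKM. In that order, 24 of 34 neighbouring pairs overlapped across the 6 libraries, among them Atf4 and Hsp90b1. Calr stood clear of Atf4, and Slc7a11 clear of Ern1. In the control, 7 of the 35 genes were at or above the level of 95% of tested genes, and the median gene of the set was above 80.8% of them. The mean of the 4 DKO libraries was 305 RPKM for Asns, 288 for Atf4 and 274 for Hsp90b1.

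**Figure D5:**
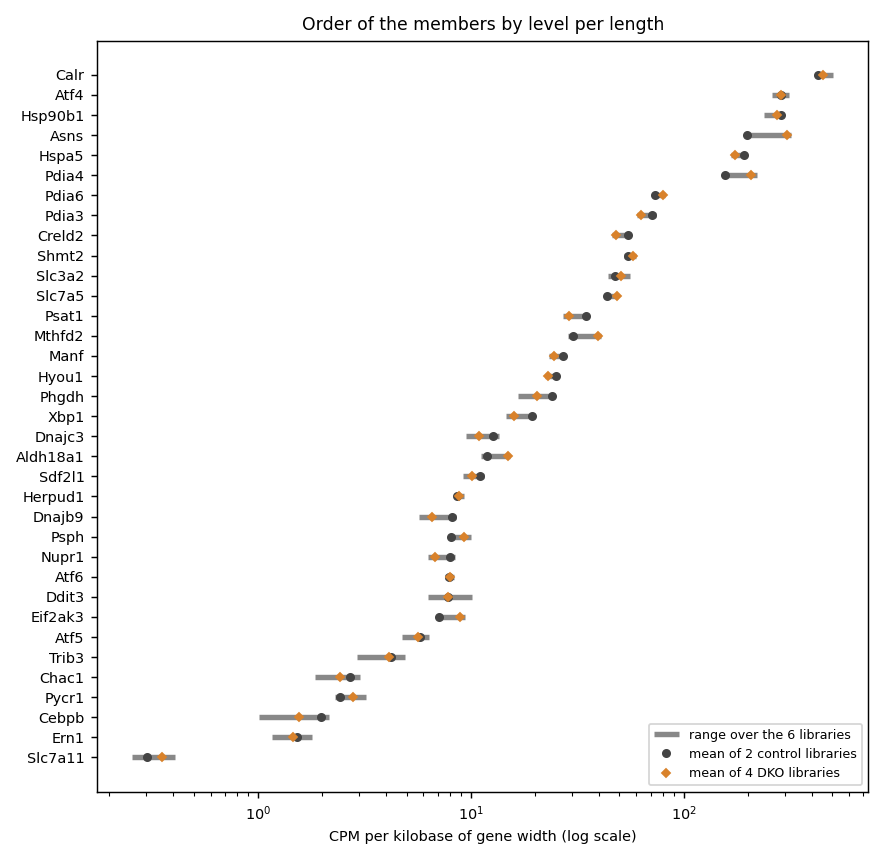
Level per length (CPM per kilobase, log axis) of the 35 genes, ordered by control mean, with points for the control and DKO means and a bar for the range over the 6 libraries. The levels run from 430 RPKM for Calr to 0.301 RPKM for Slc7a11 in the control.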

How the data were processed

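The 35 genes, the pathway lists and the tests were chosen with earlier results of these data known. Per the submitters' processing notes, the authors aligned reads with STAR 2.5.0a to mm10 (GRCm38). Per the file header and its whole-number values, the deposited table gives read counts by Entrez ID and the width of each gene. How reads were counted, and on which strand, is not given in the sources used here, so reads of overlapping genes may be shared. Symbols came from a RefSeq table of GRCm38.p6, which matched 24437 of 24467 IDs, and the 30 others took 0.389 to 1.62% of reads.

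Counts were filtered with filterByExpr, scaled by TMM and tested with the edgeR 4.0.16 quasi-likelihood F test in R 4.3.3. DKO against control used genotype alone, with 4 residual degrees of freedom, and the clone contrasts a fit of 3 groups with 3. The fit by genotype thus treats the 4 DKO libraries as replicates, although they came from 2 clones. CPM are TMM-scaled, and an SE was taken from the F statistic. Alternatives were RLE or library size scaling, other filters, DESeq2 1.42.0, limma-voom (limma 3.58.1), a replicate block, centring each chromosome and leaving out each library. The text names all 35 genes, and of each pathway list up to 4 called genes with the smallest adjusted p, except 2 called pathway genes left out of the text. Slc38a2, Sesn2, Ddit4 and Jdp2, and the genes set between the clones in the closing section, were named after their values were seen. Same-numbered libraries did not deviate together (correlations of 0.088, -0.172 and 0.061), so the main fits do not pair them. Such correlations cannot exclude a weak effect shared by libraries of the same number.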

Additional observations from a re-analysis of the deposited data

Results flagged for a closer look

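In the 4 DKO libraries, 1 library stood apart from the others in 3 of the 35 genes by Dixon's criterion, which chance meets in about 1 in 20 groups. Atf5 was at 9.48 CPM in clone 1 replicate 1, where the others were at 11.8 to 12.1 CPM. Pycr1 was at 12.7 CPM in that same library, where the others were at 10.5 to 10.6 CPM. Psph was at 43.4 CPM in clone 2 replicate 2, where the others were at 38.9 to 39.6 CPM. None of these 3 genes was called in DKO against control.

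The change against the shared control differed between the clones, by the edgeR test of clone 2 against clone 1, for Ddit3 (-0.54), Cebpb (-0.90) and Dnajc3 (-0.33) among the 35 genes. Among other genes of the pathway lists it was lower in clone 2 for Slc38a2 (-0.33), Sesn2 (-0.38), Ddit4 (-0.86) and Jdp2 (-0.72). It was also lower for the synthetases of cysteine and serine tRNA, Cars (-0.29) and Sars (-0.32). It was higher in clone 2 for the glycine decarboxylase Gldc (0.25), the ER prolyl isomerase Fkbp11 (0.85) and the RNA ligase Rtcb (0.26), which joins the XBP1 exons after IRE1 cleavage. The adjusted p-values of these 12 genes lay between 0.00381 and 0.0430.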

How the results depend on the processing

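Scaling by RLE or library size kept all 5 calls of the set in DKO against control, and moved the median of all genes by at most 0.0102. Whether the library numbers pair samples is not known. With a replicate block 3 of the 5 calls remained, with Aldh18a1 at adjusted p = 0.0634 and Eif2ak3 at 0.0718 in edgeR. With each chromosome centred, the called genes of the set numbered 1 in DKO against control, 4 in clone 1 and 3 in clone 2. Of all 14771 tested genes, 720, 1535 and 1679 were called in these contrasts. The called pathway genes numbered 9 of 129 in DKO against control. In clone 1, centring added Phgdh as lower (-0.44, edgeR adjusted p = 0.0296). Calls of the set that ended were the 4 on chromosome 6 in each of these contrasts, and Dnajc3 in clone 2. For chromosome 6, the median subtracted in DKO against control was 0.48. For Dnajc3, on chromosome 14, the median subtracted in clone 2 was -0.14. Of the 9 pathway calls that ended, 4 were on chromosome 6, 2 on chromosome 3 and 3 elsewhere. For those elsewhere the cause was not tested. Log2 changes then turned negative for Mthfd2 (-0.10 in DKO, -0.0027 in clone 1, -0.18 in clone 2), Pdia4 (-0.077, -0.14 and -0.013), Eif2ak3 (-0.16, -0.10 and -0.21), Gars (-0.083) and Sec61a1 (-0.023). With no filter, 7 genes of the set differed between the clones in place of 3 (Atf4, Trib3, Chac1 and Hsp90b1 were added), and the cause was not tested. Over all genes, 1453 of 20190 then differed, in place of 930 of 14771. With single libraries left out, the called genes of the set ran from 1 to 6 in DKO against control, 3 to 7 in clone 1, 3 to 8 in clone 2 and 0 to 2 between the clones. The called pathway genes ran from 11 to 18 with a DKO library left out. With a control library left out, which leaves 1 control library, they were far fewer, as were calls over all tested genes. Of 23 calls of the set over the 4 comparisons, 7 held with every library left out, and 2 (Psat1 in clone 1 and Xbp1 in clone 2) under every alternative. Of the 117 that were not called, 9 passed under at least 1 alternative and 27 others changed sign, at log2 changes of at most 0.22. Depth limits Cebpb, Chac1 and Slc7a11 most, with under 5 CPM in each library.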
